A study of Mus musculus with 32 samples.

Results

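Genes that encode 9 enzymes of glycolysis and gluconeogenesis were followed in kidney cortex, namely Pck1, Fbp1, Aldoa, Aldoc, Hk1, Hk2, Pfkp, Pkm and Ldha. They were chosen by symbol, and all 9 were found among the 32544 genes of the count table. The table holds bulk RNA-seq of 32 mice carrying the Col4a3tm1Dec allele on a C57BL/6J background, all 25 weeks old. Alport mice were homozygous (Col4a3-/-) and lack a chain of the collagen IV network of the glomerular basement membrane. Control mice were heterozygous (Col4a3+/-), so they carry a mutant allele as well. Mice of each sex and genotype received vehicle or nicotinamide riboside (NR), a precursor of NAD+, mixed into a purified diet, which gave 8 groups of 4 mice.

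Glycolysis splits glucose into pyruvate, and lactate dehydrogenase interconverts pyruvate and lactate. Gluconeogenesis runs the other way and needs its own enzymes at the steps that glycolysis cannot reverse, among them phosphoenolpyruvate carboxykinase (Pck1) and fructose bisphosphatase (Fbp1). In the kidney these steps are divided along the nephron. The proximal tubule makes glucose from lactate, glutamine and glycerol and burns mostly fatty acids, whereas the distal segments, the glomerulus and blood cells rely more on glycolysis. Most steps have several isozymes encoded by separate genes, and hexokinase 2 (Hk2) and platelet-type phosphofructokinase (Pfkp) are isozymes of the first committed steps of glycolysis.

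In coordinates of mm10 (GRCm38), from GENCODE M21, the 2 gluconeogenic genes lie at chr2:173153048-173159273 (Pck1, plus strand) and chr13:62864753-62888282 (Fbp1, minus strand). Of the hexokinases, Hk1 lies at chr10:62268855-62379908 and Hk2 at chr6:82725025-82774454, both on the minus strand. Pfkp is at chr13:6579768-6648777 on the minus strand. The aldolase genes are at chr7:126795234-126800751 (Aldoa, minus strand) and chr11:78322968-78327781 (Aldoc, plus strand). Pkm (chr9:59656368-59679375) and Ldha (chr7:46841475-46855627) are on the plus strand.

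The promoters of 4 members are shown because these genes differed between Alport and control mice in both sexes and have 1 promoter window each in the table used. Each sequence is the 250 bases before the RefSeq start (build GRCm38.p6), read 5′ to 3′ on the gene's own strand, with matches to 5 motifs in capitals. The windows are chr2:173152823-173153072 (Pck1, plus strand), chr13:62888283-62888532 (Fbp1, minus strand), chr6:82774455-82774704 (Hk2, minus strand) and chr13:6648772-6649021 (Pfkp, minus strand).

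Pck1: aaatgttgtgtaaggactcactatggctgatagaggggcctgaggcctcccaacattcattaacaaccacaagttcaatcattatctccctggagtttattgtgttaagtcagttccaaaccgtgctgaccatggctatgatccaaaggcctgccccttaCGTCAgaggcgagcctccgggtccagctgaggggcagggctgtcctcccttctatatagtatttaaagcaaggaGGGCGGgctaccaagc
Fbp1: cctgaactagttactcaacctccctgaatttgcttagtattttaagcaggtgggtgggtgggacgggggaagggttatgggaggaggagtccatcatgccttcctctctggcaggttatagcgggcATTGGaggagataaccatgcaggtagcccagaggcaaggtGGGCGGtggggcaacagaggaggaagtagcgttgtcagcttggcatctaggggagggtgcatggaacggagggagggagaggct
Hk2: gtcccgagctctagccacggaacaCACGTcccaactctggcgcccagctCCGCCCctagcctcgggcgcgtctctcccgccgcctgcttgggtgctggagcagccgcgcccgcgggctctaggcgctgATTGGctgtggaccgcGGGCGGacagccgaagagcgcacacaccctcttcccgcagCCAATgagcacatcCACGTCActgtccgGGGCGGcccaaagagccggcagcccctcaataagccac
Pfkp: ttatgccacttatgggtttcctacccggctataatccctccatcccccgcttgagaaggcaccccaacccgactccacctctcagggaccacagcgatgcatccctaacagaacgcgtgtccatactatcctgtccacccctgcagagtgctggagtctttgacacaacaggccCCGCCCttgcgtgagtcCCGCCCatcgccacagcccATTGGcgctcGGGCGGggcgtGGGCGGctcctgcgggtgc

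The motifs were searched on both strands. They were the GC box (GGGCGG, in 32.7% of 32851 promoter windows of the same length), the CCAAT box (CCAAT, 33.8%), the cAMP response core (TGACG, 17.8%), the hypoxia response core (ACGTG, 16.6%) and the TATA box (TATAAA, 12.4%). The Pck1 window held a cAMP response core starting 90 bases before the gene start and 1 GC box, and its GC content of 50.8% was close to the median of all windows, 52.4%. The Fbp1 window (56.4% GC) held a CCAAT box and a GC box. The Hk2 window had 69.6% GC and 8 matches, of which 2 were hypoxia response cores, 226 and 52 bases before the start. The second of these overlaps a cAMP response core, and both are in 1 run of capitals. The Pfkp window (62.8% GC) held 4 GC boxes and a CCAAT box. These matches are letters in a window and not binding sites.

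Library totals ranged from 16621944 to 27778797 counts (median 22071395). Values are given as CPM, counts scaled to a common library size after adjustment by TMM. TMM assumes that most genes do not differ between libraries. Its factors were 0.828 to 0.862 in male controls and 1.06 to 1.22 in Alport males on vehicle. In females they were 0.946 to 0.998 and 1.12 to 1.25. Small differences between genotypes, such as those of Aldoa, Hk1, Pkm and Ldha, rest on this assumption, which was not tested. Every difference is a log2 fold change from edgeR's quasi-likelihood test with its standard error (SE) and a p adjusted by Benjamini-Hochberg over all genes tested, and a gene is said to rise or fall where that adjusted p is under 0.05. All 9 members passed the filter on low counts in every comparison. Col4a3, scaled to library totals and counted over the whole gene, part of which the mutant allele still transcribes, was 129 to 173 in male and 134 to 160 in female control mice on vehicle, and 54.4 to 88.8 over the 16 Alport mice. In 3 of 4 libraries labelled male control NR it was 51.0, 79.8 and 67.3, within or under the Alport range. Female control mice on NR had 94.1 to 118, also below female controls on vehicle. Alport females had 71.6 to 88.8 on vehicle and 54.4 to 61.05 on NR, again lower with NR. Alport males had 64.5 to 87.8 and 54.4 to 82.6, with overlap. The cause of the low levels with NR was not tested. Injured tubule markers of these 3 male libraries summed to 2324, 1614 and 1982 CPM, and those of replicate 4 to 969 CPM. All 4 lay above the 805 to 948 CPM of male controls on vehicle and below the 3416 CPM of the lowest Alport mouse. Effects of NR on members and named pathway genes in male controls are given with and without the 3 libraries. Those on marker lists, and NR by genotype in males, are given only with them. Among marker lists of other cell types, summed CPM of 16 proximal tubule markers had a median of 28510 in male controls and 12980 in male Alport mice on vehicle (19828 and 9985 in females), and these fell for 16 of 16 in males and 15 of 16 in females, where 1 rose. All 8 injured tubule, 9 macrophage and 9 fibroblast markers rose in both sexes. Muscle markers summed to 7.68 to 19.3 CPM and adipocyte markers to 0.345 to 8.02 CPM per mouse.

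Alport mice on vehicle were first compared with control mice on vehicle within each sex, which shows differences between the genotypes in bulk cortex. In both sexes the 2 gluconeogenic genes fell and 2 glycolytic isozymes, Hk2 and Pfkp, rose. In males Pck1 was 2.09-fold lower, Fbp1 1.63-fold lower, Hk2 10.7-fold higher and Pfkp 1.996-fold higher. In females the same genes were 2.25-fold lower, 1.61-fold lower, 4.77-fold higher and 1.32-fold higher. Ldha fell in males and Aldoa fell in females, whereas Hk1, Pkm and Aldoc passed the test in neither sex. Of 9 members, 2 rose and 3 fell in males, where 26.8% and 24.2% of 15286 genes tested rose and fell. In females also 2 rose and 3 fell, beside 24% and 21.8% of 15709 genes.

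**Figure D1:**
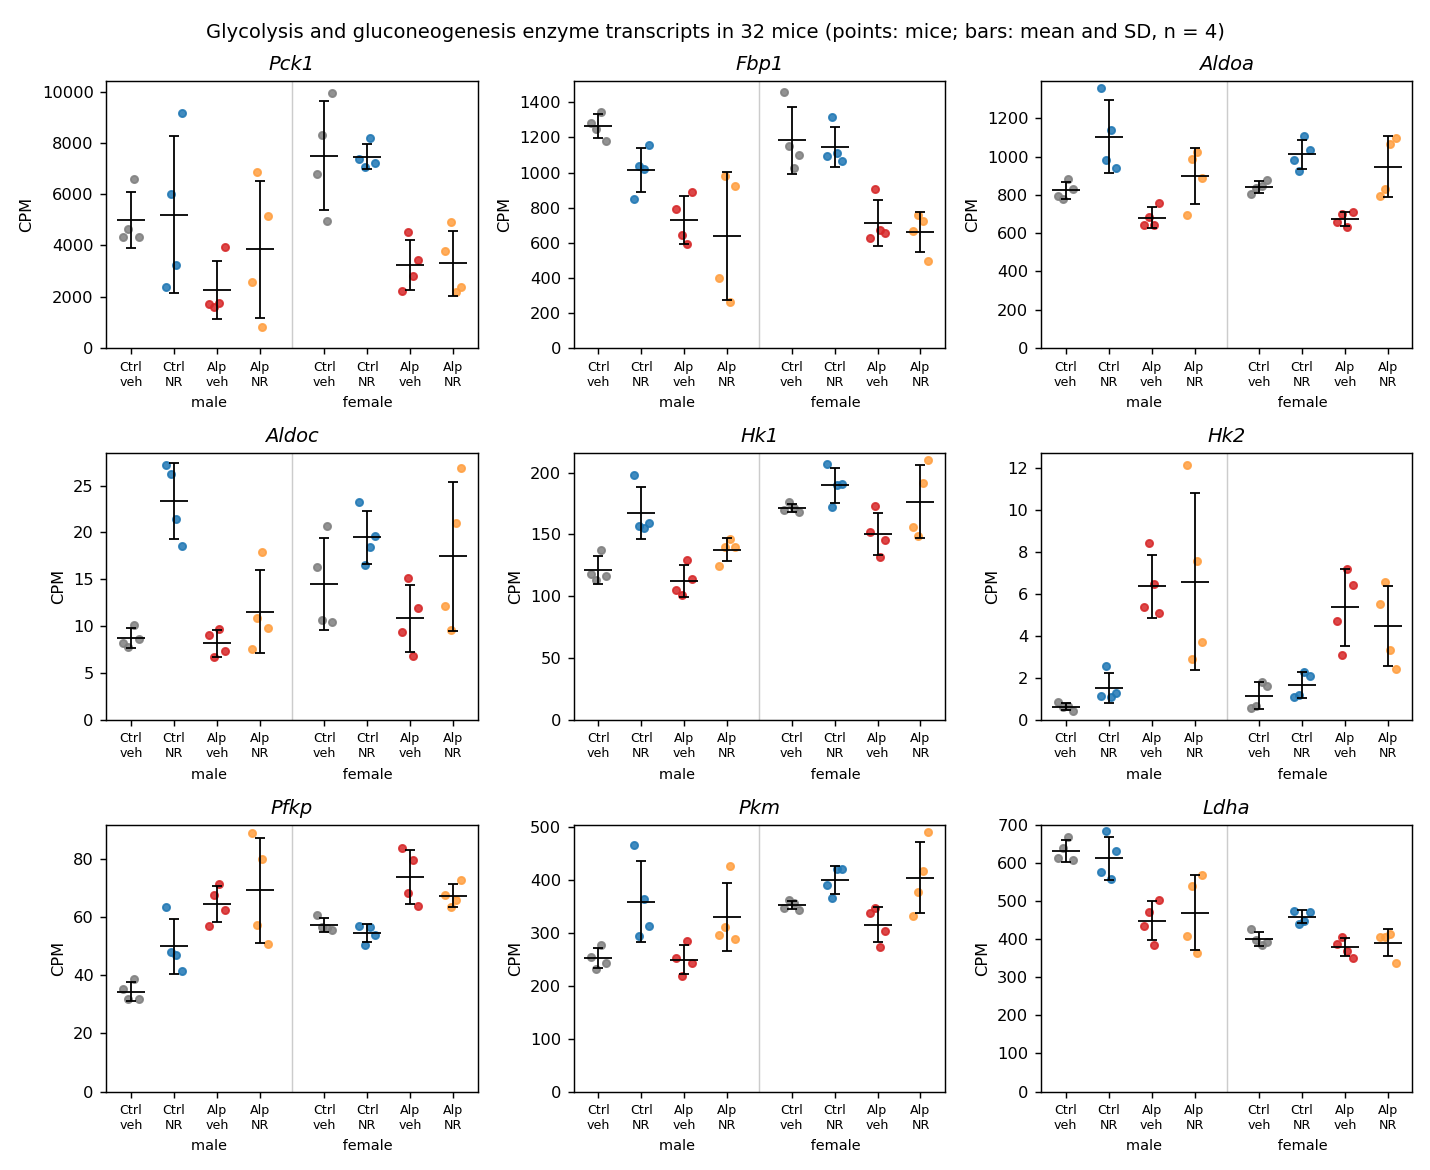
CPM (vertical axes, from 0) of each member in each mouse of the 8 groups (Ctrl, control; Alp, Alport; veh, vehicle), with points for mice and bars for the mean and SD of 4 mice. Hk2 was 0.428 to 1.80 in control mice on vehicle and 3.09 to 8.44 in Alport mice on vehicle, whereas Hk1 and Pkm overlapped between genotypes within each sex.

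Pck1 encodes the cytosolic enzyme that turns oxaloacetate into phosphoenolpyruvate. In male controls on vehicle it measured 4341, 4654, 6605 and 4330 CPM, and in male Alport mice 1708, 1597, 1747 and 3939 CPM. The groups did not overlap, and replicate 4 of the Alport males lay well above the other 3. The difference was −1.06 ± 0.28 (SE, edgeR, adjusted p = 0.00798), and −1.48 without that mouse. Female controls had 6793, 8295, 4967 and 9953 CPM and female Alport mice 2229, 4521, 2792 and 3423 CPM. No Alport female reached the lowest control female, and the difference was −1.17 ± 0.25 (edgeR, adjusted p = 0.00356).

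Fbp1 removes a phosphate from fructose 1,6-bisphosphate, the step opposite phosphofructokinase. It varied less than Pck1 between mice of each vehicle group. Male controls measured 1284, 1245, 1345 and 1180 CPM, against 793, 641, 591 and 888 CPM in Alport males. Female controls measured 1462, 1150, 1025 and 1100 CPM, against 625, 907, 670 and 653 CPM in Alport females. In neither sex did the groups overlap, and the differences were −0.71 ± 0.13 (edgeR, adjusted p = 0.000795) and −0.69 ± 0.15 (edgeR, adjusted p = 0.0032). In bulk tissue, fewer proximal tubule cells and less of these RNAs per cell cannot be told apart, and proximal tubule markers fell in the same mice. Their part in the fall of Pck1 and Fbp1 was not tested.

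Hexokinase phosphorylates glucose as it enters the cell. Hk2 was rare in controls, with 16, 14, 13 and 9 counts in the 4 male libraries (0.851, 0.599, 0.641 and 0.428 CPM). In Alport males it had 133, 208, 170 and 117 counts (5.39, 8.44, 6.49 and 5.10 CPM), and the difference was 3.42 ± 0.26 (edgeR, adjusted p = 1.08e-06). Female controls had 13, 17, 46 and 35 counts (0.557, 0.639, 1.80 and 1.60 CPM) and Alport females 147, 82, 210 and 147 counts (4.72, 3.09, 7.20 and 6.41 CPM). Every Alport mouse exceeded every control of its sex, and the female difference was 2.25 ± 0.39 (edgeR, adjusted p = 0.00105). Macrophage markers rose in the same mice, from a median sum of 86.9 to 643 CPM in males and from 103 to 645 CPM in females, and their part in the rise of Hk2 was not tested. Hk1, the isozyme of most cells, measured 113 to 138 CPM in male controls and 101 to 129 CPM in Alport males, and 168 to 176 and 132 to 173 CPM in females. Its groups overlapped in both sexes, at −0.03 ± 0.10 (adjusted p = 0.845) and −0.15 ± 0.08 (adjusted p = 0.177) by edgeR, and the female difference passed without replicate 2 of the Alport females (adjusted p = 0.0164).

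Pfkp encodes a subunit of phosphofructokinase, the main control point of glycolysis. Male controls had 35.3, 31.8, 38.8 and 31.9 CPM and Alport males 57.1, 67.9, 71.4 and 62.6 CPM, without overlap (0.997 ± 0.09, edgeR, adjusted p = 5.13e-06). Female controls had 60.8, 56.8, 56.2 and 55.7 CPM and Alport females 83.8, 68.3, 79.8 and 63.9 CPM, again without overlap (0.40 ± 0.08, edgeR, adjusted p = 0.00297). The Alport males spanned 57.1 to 71.4 CPM, overlapping both female groups. Injured tubule markers moved with Pfkp, from a median sum of 851 to 6780 CPM in males and from 2066 to 10110 CPM in females, and their part was not tested.

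Aldolase cleaves fructose 1,6-bisphosphate, and Aldoa encodes its widespread form. Female controls had 804, 837, 848 and 876 CPM of Aldoa and Alport females 657, 702, 633 and 709 CPM, which was a fall of 0.28 ± 0.08 on the log2 scale (edgeR, adjusted p = 0.0155). Without replicate 3 of the Alport females the adjusted p was 0.0517. In males the levels were 781 to 885 CPM in controls and 640 to 759 CPM in Alport mice, also without overlap, but the difference of −0.19 ± 0.09 did not pass (edgeR, adjusted p = 0.116), although it did without replicate 4 of the Alport males (adjusted p = 0.0301) and with DESeq2 (adjusted p = 0.0335). Aldoc, the form known from brain, was far below Aldoa per length, as its CPM per kb of exon was 0.00941 ± 0.000581 (SD, n = 4) of that of Aldoa in male controls. It measured 7.78 to 10.2 CPM in male controls, 6.66 to 9.74 CPM in Alport males, 10.5 to 20.6 CPM in female controls and 6.79 to 15.2 CPM in Alport females.

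Pkm encodes the M-type pyruvate kinases, which form pyruvate in the last step of glycolysis. It ranged from 232 to 278 CPM in male controls and from 218 to 284 CPM in Alport males, and from 344 to 363 and 273 to 346 CPM in females. The differences were 0.07 ± 0.10 (edgeR, adjusted p = 0.564) and −0.12 ± 0.09 (edgeR, adjusted p = 0.266). Ldha encodes the subunit of lactate dehydrogenase that predominates in glycolytic tissue. It measured 613, 641, 669 and 608 CPM in male controls and 434, 473, 386 and 505 CPM in Alport males, a fall of 0.41 ± 0.10 on the log2 scale without overlap (edgeR, adjusted p = 0.00419). In females it measured 386 to 428 CPM in controls and 352 to 407 CPM in Alport mice, with overlapping groups (−0.04 ± 0.07, edgeR, adjusted p = 0.667). Transcripts of separate splice forms, such as the M1 and M2 forms of Pkm, are summed in these counts.

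Of the other genes of the same pathways, more fell than rose in each list, where 24.2% of all genes tested fell in males and 21.8% in females. Of 17 other glycolytic genes, 16 were tested, and in males 3 rose and 8 fell, with a median log2 fold change of −0.32 beside −0.0013 over all genes. In females 3 rose and 11 fell (median −0.35). Those with the smallest p were Pgam2, a phosphoglycerate mutase of muscle type (−0.90 ± 0.10 in males and −0.85 ± 0.14 in females), Hk3, the hexokinase of white blood cells (3.02 ± 0.35 and 2.54 ± 0.34), Pklr, the liver and red cell pyruvate kinase, in males (0.59 ± 0.08), and Pfkm, the muscle-type phosphofructokinase, in females (−0.65 ± 0.10). Of 12 other gluconeogenic genes, 2 rose and 8 fell in males and 1 rose and 8 fell in females (medians −0.52 and −0.69). Slc37a4, which carries glucose 6-phosphate into the endoplasmic reticulum, fell by 0.99 ± 0.12 in males and 0.93 ± 0.15 in females on the log2 scale. Gpt2 (−0.59 ± 0.08) and Mdh1 (−0.77 ± 0.11) came next in males, and Got1 (−0.69 ± 0.11) and pyruvate carboxylase, Pcx (−0.92 ± 0.14), in females. Pck2, the mitochondrial counterpart of Pck1, went the other way and rose in both sexes (0.63 ± 0.09 and 0.43 ± 0.09, edgeR, adjusted p = 0.000169 and 0.00347), and it was named after its values were seen.

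Among 16 genes that control glycolysis or pyruvate entry to mitochondria, 3 rose and 9 fell in males and 2 rose and 7 fell in females (medians −0.28 and −0.23). Pdp2, a pyruvate dehydrogenase phosphatase, fell in males (−0.92 ± 0.09), as did the dehydrogenase subunit Pdha1 (−0.74 ± 0.10), whereas Pfkfb3, which makes an activator of phosphofructokinase, rose (0.47 ± 0.07). In females Dlat (−0.75 ± 0.10), Pdhb (−0.63 ± 0.10) and Pdk2 (−0.77 ± 0.12) led. Of 13 glucose and lactate carriers, 3 rose and 8 fell in males and 3 rose and 9 fell in females (medians −0.71 and −0.70). The lactate carrier Slc5a12 fell in both sexes (−1.27 ± 0.12 and −1.11 ± 0.19), followed by the urate and sugar carrier Slc2a9 (−1.05 ± 0.12) and Slc5a8 (−0.998 ± 0.12) in males. In females Slc2a4 (−0.84 ± 0.14) and the fructose carrier Slc2a5 (−1.09 ± 0.18) led. Slc5a12 and Slc5a2 are also among the proximal tubule markers above, so the carrier and marker lists share genes. The part of proximal tubule cells in the falls of the pathway lists was not tested. Of 7 genes of fructose and polyol metabolism, 1 rose and 5 fell in males and 2 rose and 5 fell in females. Akr1b8, an aldose reductase-like enzyme, rose in both sexes (3.15 ± 0.23 and 3.12 ± 0.21), Sord fell in males (−1.11 ± 0.13), Akr1b3 rose in females (0.74 ± 0.08), and Galm fell in both (−0.77 ± 0.10 and −0.78 ± 0.12).

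**Figure D2:**
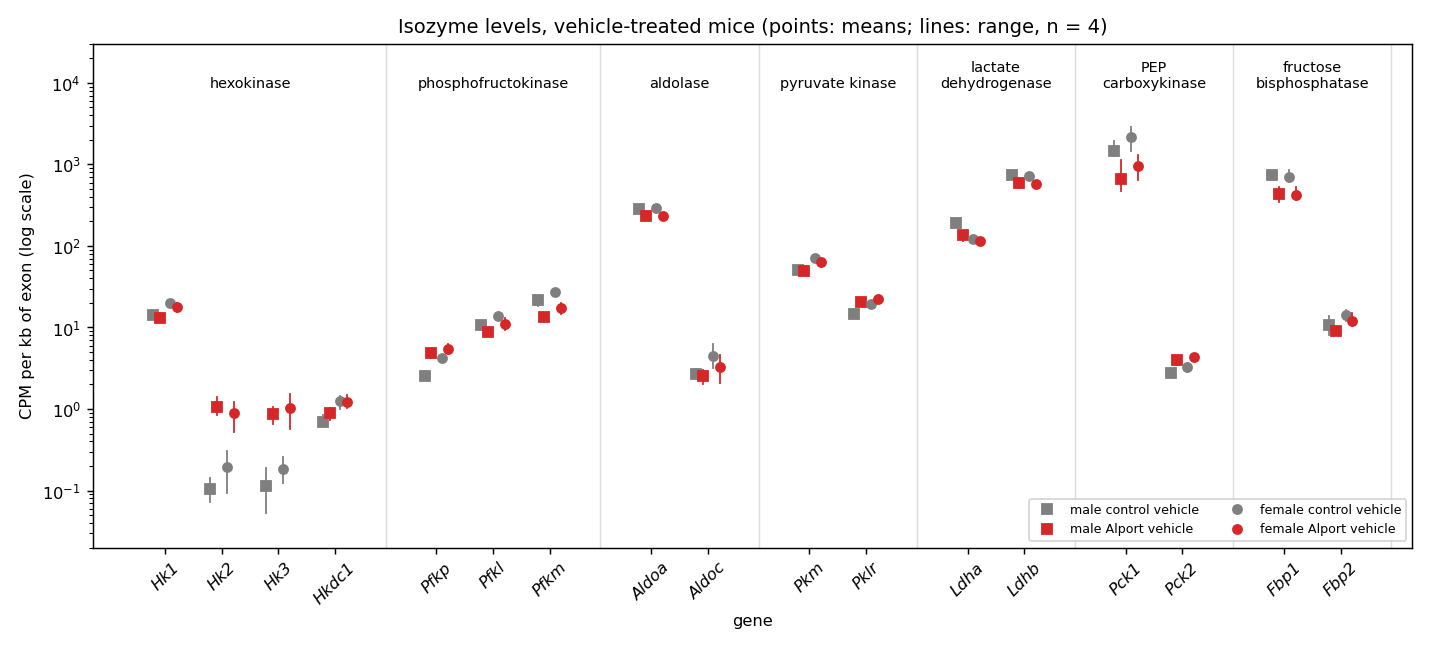
Mean CPM per kb of exon (vertical log axis) of members and their isozymes in vehicle-treated mice, with lines for the range over 4 mice. Ldhb stood above Ldha in every group, whereas Pck1 stood far above Pck2 and Pkm above Pklr.

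Set per kb of exon, the members differed in their place among isozymes. In male controls on vehicle Ldha was at 0.259 ± 0.0121 (SD, n = 4) of Ldhb. Pkm was at 3.49 ± 0.311 times Pklr, and Pck1 at 526 ± 78.7 times Pck2. These absolute ratios depend on exon lengths joined over all annotated transcripts (3.43 kb for Pck1 and 7.81 kb for Pck2). A comparison of 1 ratio between groups does not. Ratios of Alport mice were set beside these. The ratio of Ldha to Ldhb was 0.244 to 0.270 in male controls and 0.223 to 0.243 in Alport males, but 0.159 to 0.170 in female controls and 0.185 to 0.212 in Alport females, so it was lower in Alport mice of one sex and higher in those of the other. The ratio of Pck1 to Pck2 was 469 to 640 in male controls and 111 to 328 in Alport males, and 426 to 1032 and 138 to 341 in females. The ratio of Pkm to Pklr went from 3.03 to 3.70 down to 1.90 to 2.83 in males, and from 3.29 to 3.99 down to 2.53 to 3.08 in females. The ratio of Hk2 to Hk1 was 0.00527 to 0.0103 in male controls and 0.0641 to 0.120 in Alport males, and 0.00470 to 0.0151 and 0.0256 to 0.0782 in females, so that Hk1 remained the more abundant in every mouse of these groups. These ratios were chosen after the values were seen and were not tested.

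The effect of NR in Alport mice was asked next. In neither sex did any of the 9 members pass the test. In males, edgeR called 0 of 9 members and 0% of 15500 genes. At an unadjusted p under 0.05 there were 785 genes and 2 members, Hk1 and Pkm, and DESeq2 and limma-voom called 0 members. In females edgeR called 0 of 9 beside 0.477% of 15712 genes. There 2 members, Aldoa and Pkm, had an unadjusted p under 0.05, DESeq2 called 1, Aldoa, and limma-voom 0.

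**Figure D3:**
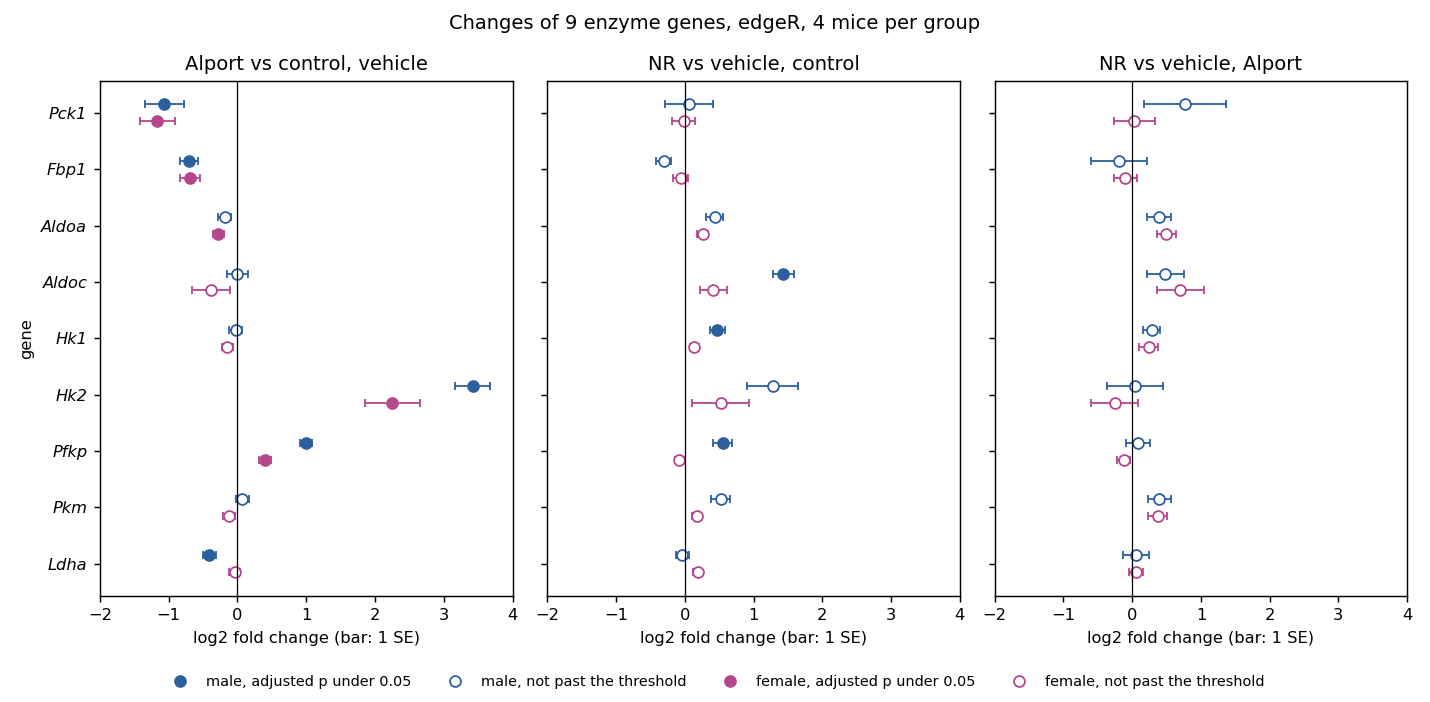
Log2 fold changes (horizontal axes) of the 9 members, with bars of 1 SE, for Alport against control on vehicle and for NR against vehicle in control and in Alport mice, where filled points passed an adjusted p of 0.05. Of the NR comparisons, filled points are seen for Aldoc, Hk1 and Pfkp in male controls alone, and the differences between sexes are given by the interaction tests.

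Pck1 in Alport males on NR measured 2571, 6849, 823 and 5155 CPM, a spread that covered and passed the vehicle group on both sides (0.77 ± 0.59, edgeR, adjusted p = 0.939). Fbp1 in the same 4 mice was 397, 980, 261 and 925 CPM, with replicates 1 and 3 below and replicates 2 and 4 above all vehicle-treated Alport males (−0.19 ± 0.40, edgeR, adjusted p = 0.970). Replicates 1 and 3 were instead the higher pair for Hk2, at 12.1, 2.90, 7.58 and 3.72 CPM, and for Pfkp, at 89.1, 57.3, 80.2 and 51.0 CPM. Summed proximal tubule markers in these mice were 7273, 18057, 5273 and 18533 CPM, low in the same replicates 1 and 3. Macrophage markers were 1023, 310, 212 and 378 CPM, high only in replicate 1 among the 4. The part of these cell types was not tested, and with any 1 mouse left out 0 members passed. Replicate 1 set the number of genes called at large, which was 380 without it and 0 with it, and without it Hk2 was at −0.42 and Aldoa at 0.50 (edgeR, adjusted p = 0.543 and 0.105).

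Aldoa came closest to a call in Alport females. It measured 794, 830, 1068 and 1099 CPM on NR, all above the 633 to 709 CPM on vehicle, and the difference was 0.50 ± 0.14 (edgeR, adjusted p = 0.143). Aldoa was also listed higher with NR in Alport males (0.39 ± 0.18, edgeR, adjusted p = 0.939), where the groups overlapped. Pkm measured 296, 311, 426 and 288 CPM in Alport males on NR against 218 to 284 CPM on vehicle, without overlap (0.39 ± 0.17, edgeR, adjusted p = 0.939), and 331 to 490 against 273 to 346 CPM in females (0.37 ± 0.14, edgeR, adjusted p = 0.236). For Hk2 the values were 0.04 ± 0.41 in males and −0.25 ± 0.34 in females, and for Pfkp 0.09 ± 0.18 and −0.12 ± 0.10. Pck1 in females differed by 0.03 ± 0.30 and Fbp1 by −0.10 ± 0.17. The remaining values were 0.48 ± 0.27 and 0.70 ± 0.34 for Aldoc, 0.28 ± 0.12 and 0.24 ± 0.14 for Hk1, and 0.06 ± 0.19 and 0.06 ± 0.10 for Ldha, in males and females. In each of the 5 other pathway lists 0 genes passed in either sex by edgeR. Over these lists DESeq2 called 2 genes in males and 8 in females, limma-voom 0 in either, and 1 fit of all 32 mice 0 and 2.

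NR was also given to control mice, to see its effect without the disease. In males 3 members rose, Aldoc, Hk1 and Pfkp, and 0 fell, where 3.07% of 14696 genes rose and 1.46% fell. Aldoc measured 27.2, 26.3, 21.4 and 18.6 CPM on NR and 8.24, 7.78, 10.2 and 8.66 CPM on vehicle, so it was 2.70-fold higher without overlap (1.43 ± 0.15, edgeR, adjusted p = 0.00173). Hk1 measured 198, 157, 155 and 159 CPM against 118, 113, 138 and 116 CPM (0.47 ± 0.11, edgeR, adjusted p = 0.0351). Pfkp measured 63.6, 48.0, 47.0 and 41.7 CPM against 35.3, 31.8, 38.8 and 31.9 CPM (0.55 ± 0.13, edgeR, adjusted p = 0.0471). Replicate 1 on NR was the highest of the 4 for each of these genes.

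The calls for Hk1 and Pfkp did not hold when single mice were left out. Hk1 lost its call without replicate 1, 2 or 4 on vehicle or replicate 1 or 3 on NR (adjusted p up to 0.116). Pfkp lost it without any of the 8 mice other than replicate 4 on NR (up to 0.143), and with limma-voom (adjusted p = 0.0559). Aldoc passed without any 1 mouse. Leaving out the 3 NR libraries whose Col4a3 lay in or under the Alport range left 1 mouse on NR. The spread between NR mice cannot be estimated from 1 mouse, so only effect sizes are given and no call is drawn. Aldoc was then at 1.07, Hk1 at 0.37 and Pfkp at 0.25. Pck1, whose NR values ran widest, was at 0.86. Aldoa was at 0.17, Hk2 at 1, Pkm at 0.29, Fbp1 at −0.15 and Ldha at −0.02. This setting was chosen after the data were seen.

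In the male controls 4 more members had an unadjusted p under 0.05 and did not pass, namely Aldoa (0.43 ± 0.13, edgeR, adjusted p = 0.0807), Hk2 (1.27 ± 0.37, adjusted p = 0.0790), Pkm (0.52 ± 0.14, adjusted p = 0.0682) and Fbp1 (−0.31 ± 0.10, adjusted p = 0.113). Hk2 there had 20, 43, 21 and 28 counts on NR. Pck1 ranged from 2361 to 9144 CPM on NR (0.06 ± 0.35, adjusted p = 0.942), and Ldha differed by −0.04 ± 0.09. In these mice 4 of 8 injured tubule markers (median sum 851 to 1798 CPM) and 6 of 7 endothelial markers (304 to 451 CPM), 4 of 9 fibroblast and 3 of 9 macrophage markers rose and 3 of 16 proximal tubule markers fell, and their part was not tested. Of the other pathway genes, Pdk4, an inhibitor of pyruvate dehydrogenase, rose by 2.44 ± 0.56 (edgeR, adjusted p = 0.0394), with 313, 50.6, 202 and 51.4 CPM on NR against 22.0 to 41.0 CPM on vehicle. The carriers Slc2a3 (0.92 ± 0.21) and Slc16a1 (0.55 ± 0.13) rose, the glucose reabsorbing carrier Slc5a2 fell (−0.47 ± 0.10), and Gpt2 fell (−0.48 ± 0.11). DESeq2 called 10 pathway genes and limma-voom 3, a replicate block left 1 and 1 fit of all 32 mice gave 6. Without 1 mouse the number ran from 0 to 13. Without the 3 libraries, which leaves 1 mouse on NR and allows no call, Pdk4 was at 0.82 and Slc16a1 at 0.38. Slc2a3 was then at 0.94, Slc5a2 at −0.45 and Gpt2 at −0.47, near their values with all 4 mice.

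In female controls edgeR called 0 of 9 members with NR beside 6.18% of 14951 genes. Aldoa (0.26 ± 0.07, adjusted p = 0.0615), Ldha (0.19 ± 0.06, adjusted p = 0.0953) and Pkm (0.17 ± 0.07, adjusted p = 0.154) had an unadjusted p under 0.05, DESeq2 called 2, Aldoa and Ldha, and limma-voom 0. Aldoa measured 982, 927, 1106 and 1033 CPM on NR against 804 to 876 CPM on vehicle, without overlap. Without replicate 2 on NR it passed (adjusted p = 0.0423). Hk2 differed by 0.52 ± 0.42, Aldoc by 0.41 ± 0.20, Hk1 by 0.14 ± 0.07, Pfkp by −0.08 ± 0.06, Fbp1 by −0.06 ± 0.11 and Pck1 by −0.02 ± 0.17. Among the pathway genes Tpi1 (0.26 ± 0.06), Pgam1 (0.28 ± 0.07), Gpt (0.65 ± 0.13) and Slc5a8 (0.27 ± 0.07) rose, and Eno3 (−0.48 ± 0.13), Gpt2 (−0.45 ± 0.10) and Pfkfb2 (−0.37 ± 0.08) fell. These 7 calls were not stable. DESeq2 called 9 pathway genes and limma-voom 6, a replicate block left 1 and 1 fit of all 32 mice 0. Without 1 mouse the number ran from 0 to 4.

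Whether NR acted differently in Alport and control mice, or in the 2 sexes, was tested by interaction terms. For NR by genotype edgeR called 0 of 9 members and 0% of 15800 genes in males and 0 of 9 and 0% of 16064 genes in females, with 1398 and 1521 genes at an unadjusted p under 0.05. In males Aldoc (−0.97 ± 0.31, edgeR, adjusted p = 0.435) and Hk2 (−1.25 ± 0.58, adjusted p = 0.562) were the 2 members at an unadjusted p under 0.05, and in females there were 0. DESeq2 and limma-voom called 0 members in either sex. For sex by NR in Alport mice edgeR called 0 members and 0% of 16189 genes (363 genes and 0 members at an unadjusted p under 0.05, DESeq2 and limma-voom 0 members). For sex by NR in control mice edgeR called 0 of 9 members beside 0.683% of 15379 genes, with Pfkp (−0.62 ± 0.15, adjusted p = 0.0648) and Aldoc (−1.004 ± 0.27, adjusted p = 0.0905) the nearest. There Hk1 and Ldha also had an unadjusted p under 0.05, DESeq2 called 2 members, Aldoc and Pfkp, and limma-voom 0. Leaving out the 3 libraries with Col4a3 in or under the Alport range leaves 1 male control on NR. In sex by NR in controls Pfkp was then at −0.34 and Aldoc at −0.67. Without replicate 4 of the male controls on NR both Aldoc and Pfkp passed, and without replicate 2 Pfkp did.

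Alport mice on NR were also set against control mice on vehicle, which shows how far treated mice stood from controls. These groups are shared with the comparisons above, so the values are not independent of them. In males Hk2 (3.44 ± 0.49, edgeR, adjusted p = 0.00374) and Pfkp (1.07 ± 0.18, edgeR, adjusted p = 0.00555) were higher and 0 members were lower, where 14.4% of 15077 genes were higher and 6.81% lower. Fbp1 (−0.92 ± 0.39, adjusted p = 0.122), Pck1 (−0.31 ± 0.55, adjusted p = 0.714) and Ldha (−0.37 ± 0.18, adjusted p = 0.171) did not pass, with the wide spread of the treated males. In females 2 members were higher and 2 lower, beside 11.9% and 11.6% of 15381 genes. Hk2 was higher by 1.96 ± 0.45 (edgeR, adjusted p = 0.0118) and Pfkp by 0.24 ± 0.07 (edgeR, adjusted p = 0.0335), and Fbp1 and Pck1 were lower (−0.83 ± 0.15 and −1.18 ± 0.29, edgeR, adjusted p = 0.0044 and 0.0154). The call for Pfkp held only without replicate 2 or 4 of the treated females among the 8 mice left out in turn (adjusted p up to 0.0977). It was also lost in 1 fit of all 32 mice (adjusted p = 0.209), as was that of Pck1 (adjusted p = 0.0531).

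Female and male control mice on vehicle differed at 6 of 9 members, 5 of them higher in females and 1 lower, where 15.9% of 14990 genes were higher and 15.8% lower. Ldha was lower in females, at 428, 397, 386 and 393 CPM against 613, 641, 669 and 608 CPM in males (−0.63 ± 0.06, edgeR, adjusted p = 2.65e-05). Pfkp was higher in females (0.76 ± 0.08, edgeR, adjusted p = 2.65e-05), as were Hk1 (0.52 ± 0.07, adjusted p = 0.000220), Pkm (0.51 ± 0.07, adjusted p = 0.000222) and Aldoc (0.76 ± 0.21, adjusted p = 0.0151). The groups of these genes, picked by their p, did not overlap. For Aldoc they came close, with 10.5 CPM in the lowest female and 10.2 CPM in the highest male. The share of all genes without overlap was not counted. Pck1 was higher in females by 0.62 ± 0.20 (edgeR, adjusted p = 0.0315) with overlapping groups, and it lost the call without replicate 1, 2 or 4 of the males or 2 or 4 of the females (adjusted p up to 0.0988), with DESeq2 (adjusted p = 0.0520) and 1 fit of all 32 mice (adjusted p = 0.376). Aldoc lost it in the fit of all mice (adjusted p = 0.0719). Hk2 (0.89 ± 0.43, adjusted p = 0.135), Fbp1 (−0.07 ± 0.10) and Aldoa (0.06 ± 0.07) did not pass. Proximal tubule markers also differed between these groups, with 6 of 16 lower and 2 higher in females, and 5 of 8 injured tubule and 6 of 9 fibroblast markers were higher, and their part was not tested.

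In Alport mice on vehicle edgeR called 0 of 9 members between the sexes, beside 3.84% of 15791 genes. Hk1 (0.42 ± 0.11, adjusted p = 0.0624), Pkm (0.33 ± 0.11, adjusted p = 0.128) and Ldha (−0.25 ± 0.10, adjusted p = 0.212) had an unadjusted p under 0.05, DESeq2 called 2, Hk1 and Pkm, and limma-voom 0. Without replicate 3 of the Alport males Hk1 passed (adjusted p = 0.0281). The sex by genotype interaction tests whether the difference between genotypes was of another size in the 2 sexes. By it 1 member, Pfkp, was lower and 0 were higher, where 0.365% of 16152 genes were lower and 0.167% higher. Pfkp differed by −0.63 ± 0.13 (edgeR, adjusted p = 0.0359), a rise of 1.996-fold in males against 1.32-fold in females. This call was lost in 12 of 16 fits without 1 mouse (adjusted p up to 0.0833), and stood only without replicate 3 of the male controls, replicate 1 of the Alport males or replicate 1 or 3 of the Alport females. It was also lost with other size factors (adjusted p = 0.0653) and in 1 fit of all 32 mice (adjusted p = 0.654). Hk2 (−1.20 ± 0.51, adjusted p = 0.350) and Ldha (0.33 ± 0.12, adjusted p = 0.254) did not pass.

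**Figure D4:**
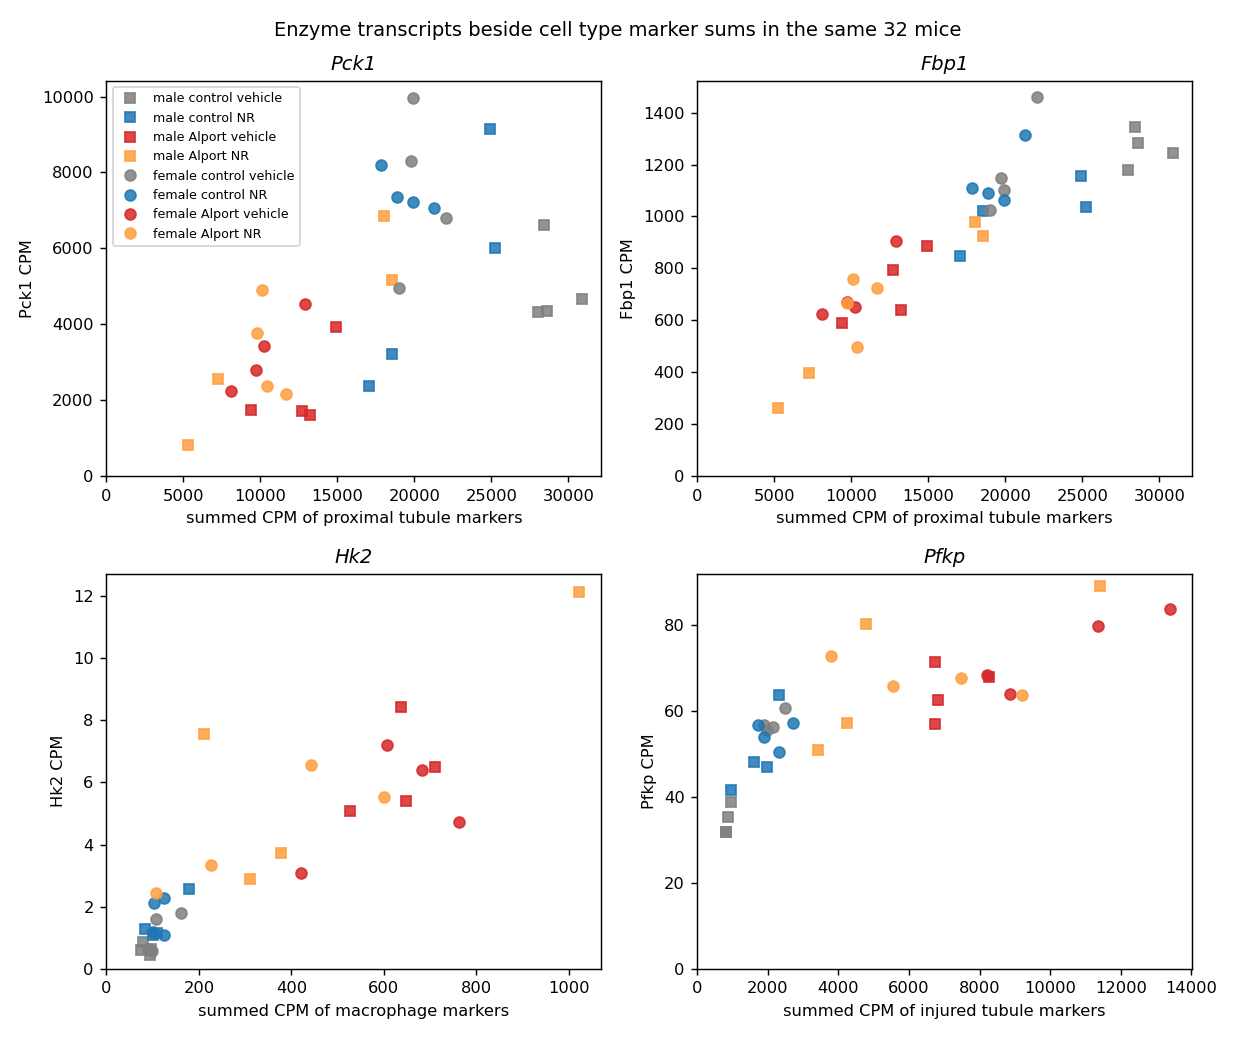
CPM of 4 members (vertical axes) against the summed CPM of marker genes of proximal tubule, macrophages or injured tubule in the same libraries (horizontal axes), with squares for males and circles for females of the 8 groups. In Alport males on NR, the 2 mice with proximal tubule sums of 5273 and 7273 CPM also had the lowest Fbp1 of the 32, at 261 and 397 CPM.

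The levels of each member were finally compared with those of all other genes tested in the main comparisons, by the root mean square (RMS) difference of the 8 group means of log2 CPM after centring, over 14456 genes. These are descriptions over 8 groups. Fbp1 was nearest to Aadac (RMS 0.0692), an esterase, and Tmem139 (0.0823), and Pck1 to Cyp51 (0.115), an enzyme of sterol synthesis, and Ccbl2 (0.121). Aldoa was nearest to Gpi1 (0.0507), the glycolytic enzyme that acts before phosphofructokinase, and Rabac1 (0.0512). Hk2 was nearest to Spon1 (0.136) and the innate immune receptor Tlr13 (0.145), and Pfkp to B4galt6 (0.0622) and Lpcat1 (0.0640). Pkm was nearest to Ckmt1 (0.0457), a mitochondrial creatine kinase, and Susd4 (0.0504), Ldha to Yaf2 (0.0308) and Snx6 (0.0413), Hk1 to Zpbp (0.0668) and Hpcal1 (0.0724), and Aldoc to the water channel Aqp6 (0.186) and Acsl3 (0.192). The member profiles themselves varied over the 8 groups by an SD of 0.23 (Aldoa) to 1.15 (Hk2) on the log2 scale.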

How the data were processed

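Kidney cortex RNA of 32 mice was sequenced by the authors, who deposited raw read counts per gene and a second table of log10 values, which equal log10 of CPM plus 1 and were not used further. Per the labels the build was mm10. The study names the BioJupies pipeline, and the aligner version, annotation and strand setting are not given in the sources used here. How reads shared by near-identical genes were counted is not given either, so Aldoa, Pkm and Ldha, which are known to have processed copies, are less certain, and Aldoa has 2 gene entries in GENCODE M21. Where nothing says otherwise, each library is 1 mouse, and p-values measure the spread between those libraries.

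From the deposited counts, edgeR 4.0.16 (R 4.3.3) was run per comparison on its own mice (8, or 16 for interactions), with TMM, filterByExpr (minimum count 10) and Benjamini-Hochberg adjustment at 0.05, after a check of the scripts on simulated data. Displayed CPM used TMM over all 32 mice. Levels per kb used union exon lengths of GENCODE M21, and 74 of 74 symbols matched. Promoter windows came from RefSeq GRCm38.p6. Alternatives were DESeq2 1.42.0, limma-voom (limma 3.58.1), RLE size factors, no filter, 1 fit of all mice, a replicate block and leaving out each mouse. The text names all members, per pathway list the 3 called genes of lowest p in either Alport against control comparison and up to 3 called genes in each NR comparison, and the 2 genes nearest in profile to each member. The members and lists were chosen with earlier results of these data known. Within-group pairs of libraries all differed by more than sampling noise (lowest chi-square per degree of freedom 7.56 over 48 pairs). One gene of the glycolysis list is counted in its list but not reported by itself here.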

Additional observations from a re-analysis of the deposited data

Results flagged for a closer look

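Within groups of 4 mice, 72 sets of values (9 members in 8 groups) were searched for a mouse far from the other 3, and chance alone marks about 1 set in 20. In 3 sets 1 mouse stood apart. Pck1 in Alport males on vehicle was 3939 CPM (11.94 on the log2 scale) in replicate 4 and 1597 to 1747 CPM in the others. Hk1 in male controls on NR was 198 CPM (7.633) in replicate 1 and 155 to 159 CPM in the others. Ldha in Alport females on NR was 338 CPM (8.403) in replicate 4 and 406 to 414 CPM in the others. The rise of Pfkp in Alport mice was smaller in females than in males by the interaction test (−0.6251 on the log2 scale), a call that most fits without 1 mouse lost.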

How the results depend on the processing

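In both sexes the calls of Pck1, Fbp1, Hk2 and Pfkp in Alport against control mice, and of Ldha in males, held under all 6 other fits and without any 1 mouse. Each of these fits scales libraries on the assumption that most genes do not differ, so none tests that assumption. Ldha counts divided by library totals alone overlap between control and Alport males on vehicle. Without 1 mouse 2 members rose in either sex, 3 to 4 fell in males and 2 to 4 in females. The numbers that changed by over 1.5 times were those of NR and of sex. With DESeq2, 6 members rose and 1 fell with NR in male controls, 2 rose in female controls, 1 rose in Alport females, 1 was lower in treated Alport males than in controls, 2 were higher in female than male Alport mice, and the interactions gave 1 higher member for sex by genotype and 2 lower for sex by NR in controls. With RLE size factors sex by genotype gave 0 lower members. In 1 fit of all 32 mice, where all groups share 1 estimate of the spread, 5 members rose with NR in male controls and 1 in Alport females, 2 were lower in treated Alport males, 1 was higher and 1 lower in treated Alport females, 3 were higher in female than male controls and 1 in female than male Alport mice, and sex by genotype gave 0. Without 1 mouse, the members that rose with NR in male controls ranged from 1 to 5 and those that fell from 0 to 1, those that rose in female controls from 0 to 1, those higher in treated Alport females from 1 to 2, those higher in female than male Alport mice from 0 to 1, and those lower by interaction from 0 to 1 (sex by genotype) and 0 to 2 (sex by NR in controls). Chosen after seeing the data, leaving out the 3 male control NR libraries with Col4a3 in or under the Alport range left 1 mouse in that group. This setting turned Aldoa in sex by NR in controls from −0.16, which was not called, to 0.07967. Without 1 mouse Aldoa in sex by genotype ranged from −0.1579 to 0.001741, also not called. For these changes the cause was not tested.

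Over all genes, edgeR called 666 with NR in male controls, 924 in female controls, 75 in Alport females and 0 in Alport males, against 1654, 1493, 728 and 62 with DESeq2. The fit of all 32 mice gave 18 in female controls, 253 in Alport females and 88 in Alport males, and 116 were called in Alport females with no filter. By edgeR without Alport NR replicate 1, 380 genes were called in Alport males and 782 in NR by genotype in males, and without 1 mouse the numbers ran from 74 to 1886 in male controls, 395 to 809 in female controls, 9 to 166 in Alport females, 1446 to 3970 and 2288 to 4800 for treated Alport against control males and females, 265 to 906 for female against male Alport mice, 23 to 93 for sex by genotype, 22 to 677 for sex by NR in controls and 0 to 45 for NR by genotype in females. Treated Alport against control males gave 3199, and 6819 in the fit of all mice. Female against male gave 4756 in controls (2799 in the fit of all mice) and 607 in Alport mice (1367 with DESeq2, 375 in the fit of all mice). Sex by genotype gave 86, against 260 with DESeq2, 46 with limma-voom, 52 with RLE and 5 in the fit of all mice, and sex by NR in controls 105, against 504 with DESeq2 and 7 in the fit of all mice. NR by genotype gave 20 and 30 with DESeq2 in males and females, 1 in males in the fit of all mice and 3 in females with no filter, and sex by NR in Alport mice gave 1 with DESeq2.

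Deviations of same-numbered mice had correlations of −0.167 to 0.261 over 40 pairs, 5 over 0.1. The labels do not say whether the numbers pair mice, and these correlations cannot exclude it. The main fits therefore used no block. With a replicate block 1 member rose with NR in male controls and 0 were higher in treated Alport females than in controls. The calls lost were Hk1 and Pfkp (adjusted p = 0.0656 and 0.0601 by edgeR), Hk2 and Pfkp (0.0582 and 0.0980), and Pck1 in female against male controls (0.0652). Over all genes the block gave 309 with NR in male controls, 371 in female controls, 2292 against 3615 for treated Alport against control females, 351 for female against male Alport mice and 61 for sex by NR in controls. Counts of 9 to 46 per library for Hk2 in vehicle controls limit its precision.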
